A study of Mus musculus with 4 samples.

Results

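Human T cells from the injured spinal cord were compared, gene by gene, with human T cells in the blood of the same injury condition, in mice that carry a human immune system. Unique molecular identifiers (UMIs), which count captured RNA molecules, were what the cells were selected on. A barcode was taken as a human T cell where over 50% of its UMIs lay on human genes, at least 500 human genes were detected, CD3D, CD3E and CD3G (chains of the CD3 complex of the T cell receptor) had at least 2 UMIs together, and MS4A1 (a B cell gene) and LYZ (a myeloid gene) had 0. The rule kept 66 barcodes of the injured cord and 4716 of SCI blood, 4782 in all, among 12890 such T cells, 18106 human barcodes and 22830 barcodes of the series.

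T cells recirculate between blood and lymph nodes. The chemokine receptor CCR7 guides them into nodes, the sphingosine receptor S1PR1 lets them leave again, and the transcription factor KLF2 maintains this programme. T cells held in tissues are known to lose it and to carry CD69, which removes S1PR1 from the surface, together with receptors such as CXCR6 and the signalling regulator RGS1. T cells stimulated through their receptor switch on immediate early genes such as FOS and JUNB, chemokines such as CCL3 and CCL4, and receptors such as CTLA4 and ICOS.

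The study examined how human leukocytes respond to spinal cord injury (SCI), and this comparison addresses how circulating T cells and those recovered from the lesion differ. Every library came from huNSG-SGM3 mice, immunodeficient hosts engrafted with human CD34+ cord blood cells, aged 15 weeks by the labels. The hosts carry Prkdcscid on the NOD.Cg background together with the IL2rgtm1Wjl allele and a transgene of human cytokines, Tg(CMV-IL3,CSF2,KITLG)1Eav/MloySzJ. SCI cord and SCI blood came from pooled male and female hosts 7 days after a contusion at vertebral level T9, sham blood from male hosts 7 days after a T9 laminectomy, and naive blood from untreated male hosts. All were sorted for human CD45.

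The hosts lack their own lymphocytes, and a viral (CMV) promoter drives human IL3, CSF2 and KITLG in the controls too. By the study's methods, blood was drawn from the same group of SCI mice whose cords were taken, so the libraries compared share animals. Animals were pooled, and each condition was 1 library, so no difference has a replicate check and no p-value is given. All intervals are exact 95% intervals of counting error only. The cord was digested with papain and enriched on magnetic columns before the sort and blood was not, so compartment and tissue preparation cannot be told apart in any comparison below.

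T cells were 47.8% of the human barcodes of the cord (95% binomial interval 39.3 to 56.5), against 75.1% in SCI blood, 64.3% in naive blood and 76.2% in sham blood. At the edge of the rule, 1 cord T cell had exactly 2 CD3 UMIs and 3 cord barcodes outside it had 1. Of the 73 cord barcodes with 2 or more CD3 UMIs that met the other limits, 7 were left out for LYZ and 0 for MS4A1. Cord T cells were the deeper ones, with a median of 7977 human UMIs per cell against 4627, 3569.5 and 5148 in SCI, naive and sham blood. Every cell was therefore thinned at random to 2000 UMIs outside ribosomal and mitochondrial genes, which kept 65 cord, 4424 SCI blood, 3463 naive blood and 3721 sham blood T cells. Levels below are thinned sums scaled to counts per 1000000 UMIs (CPM), and 1 UMI in the cord equals 7.69 CPM. The cord and SCI blood libraries shared 1 barcode, which was a T cell in neither.

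The label was checked against T cell genes that the rule did not use. TRAC, the constant segment of the receptor alpha chain, stood at 2162 CPM in the cord, 1598 in SCI blood, 1946 in naive blood and 1850 in sham blood, and at 2.08 CPM in 48 human cord cells without CD3, whose levels here are not thinned. Each of the 66 cord T cells held at least 1 UMI of CD2, TRAC, TRBC1 or TRBC2, with a median of 31. Of the 19 genes of a T cell identity list, 18 passed the filter on low values described below. IL7R was 2-fold lower, 0 were 2-fold higher, and the median log2 ratio was -0.03. The signalling proteins LAT (438 and 435 CPM in cord and SCI blood), LCK (631 and 729) and the transcription factor BCL11B (300.0 and 292) lay close to equal.

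Markers of other cell types moved with the compartment. 3 of the 66 cord barcodes carried RNA of basophils or mast cells, with 906, 305 and 358 UMIs of a 13-gene list that includes CPA3, TPSAB1 and CLC. The other 63 had at most 2. Those 3 barcodes had 4677 to 5611 genes each, and between 3 and 20 CD3 UMIs. Among the 61 other human cord barcodes with 500 genes, 35 reached 10 UMIs of the basophil list. The summed level of that list was 1254 CPM in cord T cells, 39.0 in SCI blood, 26.6 in naive blood and 26.7 in sham blood, and 32.3 in the cord without the 3 barcodes. A monocyte list of 21 genes summed to 423 CPM in the cord and 252 in SCI blood, and to 218 without them, with 11 of its genes at 0 in the cord, CSF1R, FCN1 and CD163 among them.

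**Figure D1:**
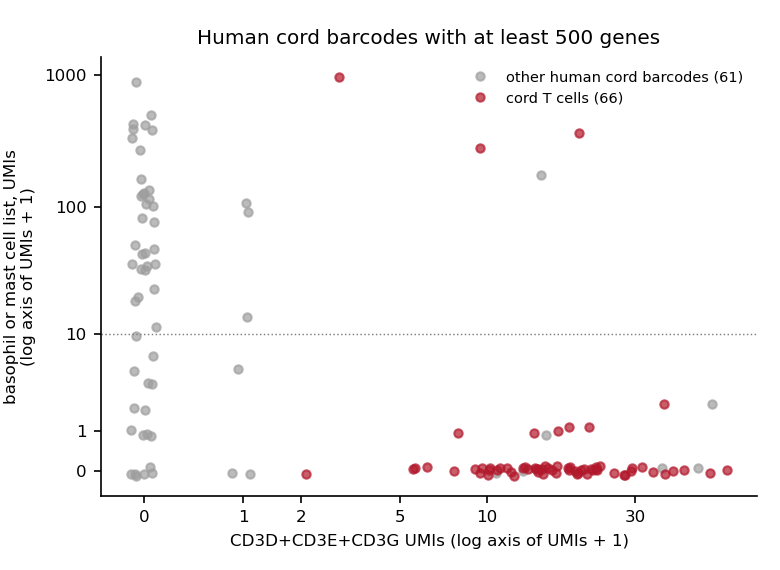
Human barcodes of the injured cord with at least 500 genes, with UMIs of CD3D, CD3E and CD3G on the horizontal axis and UMIs of the 13 basophil or mast cell genes on the vertical axis, both on a log axis of UMIs + 1, with points shifted slightly at random. Red points are the 66 T cells, grey points the 61 other barcodes, and the dotted line marks 10 UMIs. 3 T cells lie above the line, and the other 63 have at most 2 UMIs.

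The remaining lists were lower in level. An eosinophil or neutrophil list of 14 genes summed to 169 CPM in the cord and 4.41 in SCI blood, and to 8.06 without the 3 barcodes. A dendritic cell list of 9 genes gave 53.8 and 5.42 CPM, an NK list of 11 genes 269 and 112, and a B cell list of 14 genes 146 and 148. NCAM1, NCR1 and KLRF1, which define NK cells, were at 0 in the cord, and XCL1 held 115 of that list's 269 CPM. Plasma cell markers stood at 169 and 164 CPM and erythroid or platelet markers at 0 and 1.13. Markers of other cells were not confined to the 3 barcodes. Of thinned T cells, 46 of 65 in the cord and 4017 of 4424 in SCI blood had no UMI of 66 such markers. Each of these markers was seen in at most 1% of SCI blood T cells. Over 3000 genes were detected in 18 of 66 cord T cells and in 235 of 4716 of SCI blood, before thinning. The part of other cells in the results was not tested, and results are given with and without the 3 barcodes where they move.

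The comparison across genes covered the 3742 genes with a mean of at least 50 CPM over the cord and SCI blood. At 2-fold or more, 207 were higher in the cord (5.53% of those tested) and 91 were lower (2.43%). Without barcodes of 10 or more basophil UMIs on both sides, 215 were higher (5.74%) and 92 lower (2.46%), and 180 of the 207 and 79 of the 91 were still 2-fold apart. Scaling by trimmed means (TMM), which moved every log2 ratio by -0.14, gave 148 higher and 139 lower. The ratios had 0.5 counts added on each side, and adding the same CPM on both sides instead gave 159 higher and 98 lower. The balance of the directions thus depended on the scaling and on the counts added. Between blood libraries far fewer genes were 2-fold apart. SCI blood over naive blood had 14 higher (0.377%) and 10 lower (0.27%), and SCI blood over sham blood had 8 (0.218%) and 11 (0.3%), with over 3000 cells on each side where the cord had 65.

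Few cord cells leave wide counting intervals. The interval lay wholly above 2-fold for 42 genes and wholly below it for 3. Of the 207 and 91 genes, 114 and 32 were again 2-fold apart in a second random thinning. With all UMIs, 91 of the 207 higher genes and 28 of the 91 lower genes were. The 42 and the 3 were steadier, as 41 and 3 of them were 2-fold apart in the second thinning, 39 and 3 with all UMIs and 35 of the 42 without the 3 barcodes. Against all 3 blood libraries at once, 133 genes were 2-fold higher and 61 lower in the cord. These comparisons share the cord library.

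The 12 highest ratios, among genes with a mean of at least 100 CPM and a UMI in at least 10% of the thinned cord T cells, belonged to CXCR6, RGS1, DUSP2, DDIT4, CD69, CCL4, FOS, AC020916.1, DUSP1, FOSB, FABP5 and SLC2A3. Their log2 ratios ran from 4.89 down to 1.76, and without the 3 barcodes 11 of the 12 stayed among the 12 highest. All but FOS lay under 100 CPM in SCI blood and entered only through the cord, so the ranking describes the genes that passed. CD69, CCL4, FOS, AC020916.1, DUSP1 and FOSB stood higher still in the other human cord cells, which were not thinned. The 12 lowest were KLF3, SATB1, PLAC8, CCR7, PTGER2, MYADM, NOSIP, C1QBP, RASGRP2, GIMAP7, PAG1 and NOP56, from -1.79 to -1.22. Differences on the lower side were smaller than on the higher side, and 2-fold down was within the interval for most of them. With all UMIs, C1QBP, RASGRP2, PAG1 and NOP56 fell short of 2-fold, at -0.88, -0.69, -0.85 and -0.86.

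**Figure D2:**
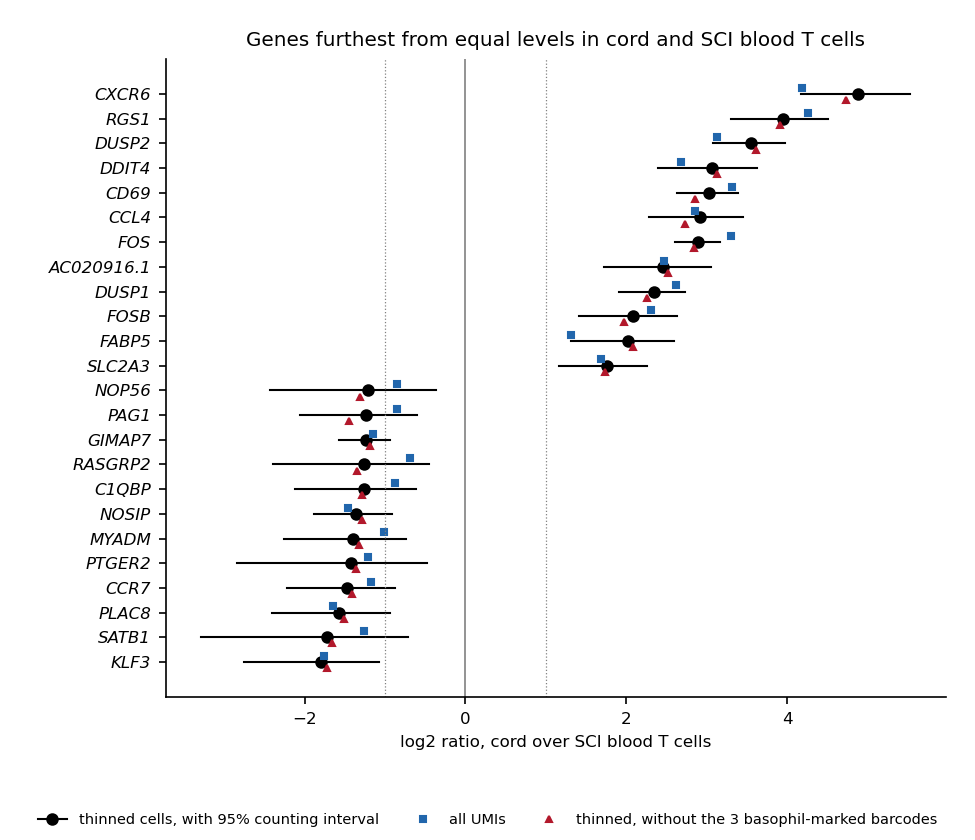
Log2 ratios of cord over SCI blood T cells for the 12 highest and 12 lowest genes, with exact 95% counting intervals (black), the ratio from all UMIs (blue squares) and the ratio without the 3 barcodes with basophil RNA (red triangles). Dotted lines mark 2-fold. CXCR6 stands highest at 4.89 and KLF3 lowest at -1.79, and no point crosses 0 under the other treatments shown.

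Genes of tissue residency that could be compared were higher than in SCI blood. Of 16 listed genes, 6 passed the filter and all 6 were 2-fold higher in the cord, where 5.53% of all tested genes were. The median log2 ratio was 3.54, where the median over all tested genes was 0.08. A gene that is rare in blood passes the filter only where it is high in the cord, so this count describes the 6 and not the list. Over all 16 genes, each with at least 1 UMI, the median was 2.10. The 10 genes that did not pass included ITGAE, the alpha E integrin of epithelial residents, at 30.8 CPM in the cord and 66.7 in SCI blood. ITGA1 stood at 46.2 and 46.6, PRDM1 at 30.8 and 20.1, and ZNF683 at 46.2 and 14.8.

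CD69 stood at 508 CPM in cord T cells, 62.4 in SCI blood, 51.7 in naive blood and 67.6 in sham blood. The 3 blood libraries lay close together and the cord stood apart, with a log2 ratio over SCI blood of 3.03 (2.63 to 3.39) that became 2.85 without the 3 barcodes. A CD69 UMI was found in 32 of 65 thinned cord T cells (49.2%, 36.6 to 61.9) and in 11.1%, 8.75% and 11.7% of SCI, naive and sham blood T cells. Without thinning the shares were 77.3% and 17.6% in cord and SCI blood. CD69 was not particular to T cells, since the other human cord cells held it at 917 CPM.

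RGS1, which dampens signalling of chemokine receptors, stood at 231 CPM in the cord and at 15.1, 13.4 and 24.6 in SCI, naive and sham blood. Its log2 ratio over SCI blood was 3.95 (3.31 to 4.51). CD69 and RGS1 were both detected in 20.0% of thinned cord T cells (11.1 to 31.8) and in 0.362% of SCI blood T cells, or in 40.9% and 1.17% without thinning. The cord cells with both genes were 13 of 65 thinned and 27 of 66 unthinned T cells.

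CXCR6, the receptor for the chemokine CXCL16, gave the highest of the 12 ratios ranked above, a set that it entered only through the cord. It stood at 215 CPM in the cord and at 7.35, 8.81 and 11.2 in SCI, naive and sham blood, 29.6-fold above SCI blood (log2 4.89, 4.18 to 5.53). The 28 cord UMIs came from 12 of 65 cells, with at most 4 in any cell. It was at 0 in the other human cord cells and in SCI blood B cells. NR4A2, a nuclear receptor induced by T cell receptor signals, was at 138 CPM in the cord and 3.96, 1.73 and 1.75 in the bloods. The prostaglandin receptor PTGER4 was at 169 CPM against 70.1, 63.4 and 56.8, with log2 1.30 (0.59 to 1.88).

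The shares of cells need a background. In 48 human cord cells without CD3 (median 10511 UMIs, 44 thinned) and 887 B cells of SCI blood (median 4874 UMIs, 837 thinned), a thinned CXCR6 UMI was seen in 0% of both. RGS1 was seen in 13.6% and 0.119%, below the 24.6% of cord T cells. CD69 was seen in 59.1% of the other cord cells and 32.6% of B cells, and FOS in 65.9% and 12.8%. For CD69 and FOS the other human cord cells were thus at or above the T cells, and for CXCR6 they were not.

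**Figure D3:**
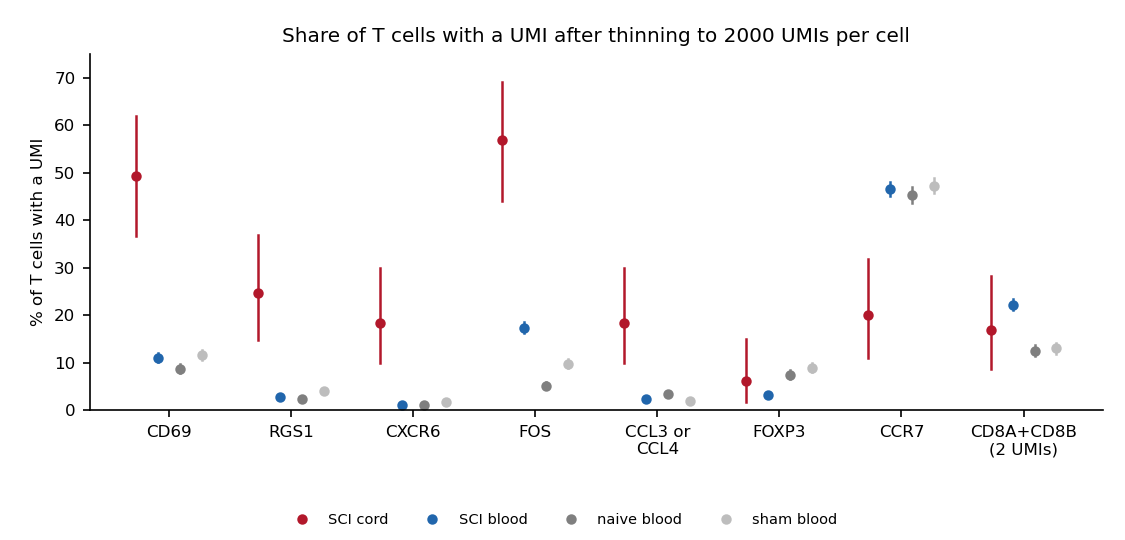
Percent of T cells with a UMI of each gene after thinning to 2000 UMIs per cell, in the cord (65 cells), SCI blood (4424), naive blood (3463) and sham blood (3721), with exact 95% binomial intervals. For CD8A and CD8B the point counts cells with at least 2 UMIs together. CD69, RGS1, CXCR6, FOS and the pair CCL3 and CCL4 stand higher in the cord, CCR7 stands lower than in all bloods, and the FOXP3 and CD8 intervals of the cord overlap those of SCI blood.

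Genes of recirculating T cells were lower in the cord in part. Of 16 genes of naive state and lymph node homing, 14 passed the filter, 6 were 2-fold lower and 0 were higher. Over all tested genes 2.43% were lower. The median log2 ratio of the list was -0.98, with the same median without the 3 barcodes. The 2 that did not pass were BACH2 and PECAM1. The 6 lower genes were KLF2, IL7R, NOSIP, CCR7, MYC and SATB1. Against naive and sham blood the median was -0.79 and -0.80.

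KLF2 stood at 977 CPM in the cord and at 2191, 2207 and 2367 in SCI, naive and sham blood, a log2 ratio over SCI blood of -1.16 (-1.43 to -0.91). The difference lay in how many cells held it as well as in its amount. A KLF2 UMI was found in 38 of 65 thinned cord T cells (58.5%) and in 96.2% of SCI blood T cells, and the median cell held 1 UMI in the cord and 4 in each blood. Without thinning the shares were 66.7% and 98.5%. The highest cord cell, with 11 UMIs, lay inside the range of SCI blood, which reached 23.

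CCR7 stood at 154 CPM in the cord against 438, 394 and 417 in the bloods, 2.78-fold below SCI blood (log2 -1.47, -2.22 to -0.88). It was detected in 20.0% of thinned cord T cells (11.1 to 31.8) and 46.6% of SCI blood T cells, or in 40.9% and 57.3% without thinning. The transcription factors of naive and memory T cells TCF7 (308 and 617 CPM in cord and SCI blood) and LEF1 (215 and 397) had log2 ratios of -0.99 and -0.86, short of 2-fold. S1PR1 stood at 53.8 and 102 CPM from 7 cord UMIs, and its interval (-2.24 to 0.12) included equality.

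IL7R, the receptor for interleukin 7, stood at 454 CPM in the cord and at 1034, 653 and 791 in SCI, naive and sham blood. The ratio depended on the blood used, at -1.18 over SCI blood, -0.51 over naive and -0.79 over sham blood. SATB1, a chromatin organiser, rested on 6 cord UMIs (46.2 CPM against 165, 99.2 and 119). CD27 (562 and 572 CPM) and FOXP1 (262 and 285) were close to equal in cord and SCI blood, so the members of the list differed among themselves.

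Outside that list, KLF3, a repressor related to KLF2, was at 100 CPM in the cord and at 360, 311 and 372 in the bloods. PLAC8 stood at 131 CPM against 402, 220 and 261, and GIMAP7, a GTPase of lymphocyte survival, at 646 against 1537, 1473 and 1481. All were lower in the cord than in every blood. PTGER2 was not: at 53.8 CPM in the cord it was below SCI blood (155) but level with naive blood (54.4), so its ratio depended on the blood used. C1QBP and NOP56, proteins of mitochondrial and ribosome assembly, stood at 123 and 69.2 CPM in the cord and 305 and 170 in SCI blood.

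**Figure D4:**
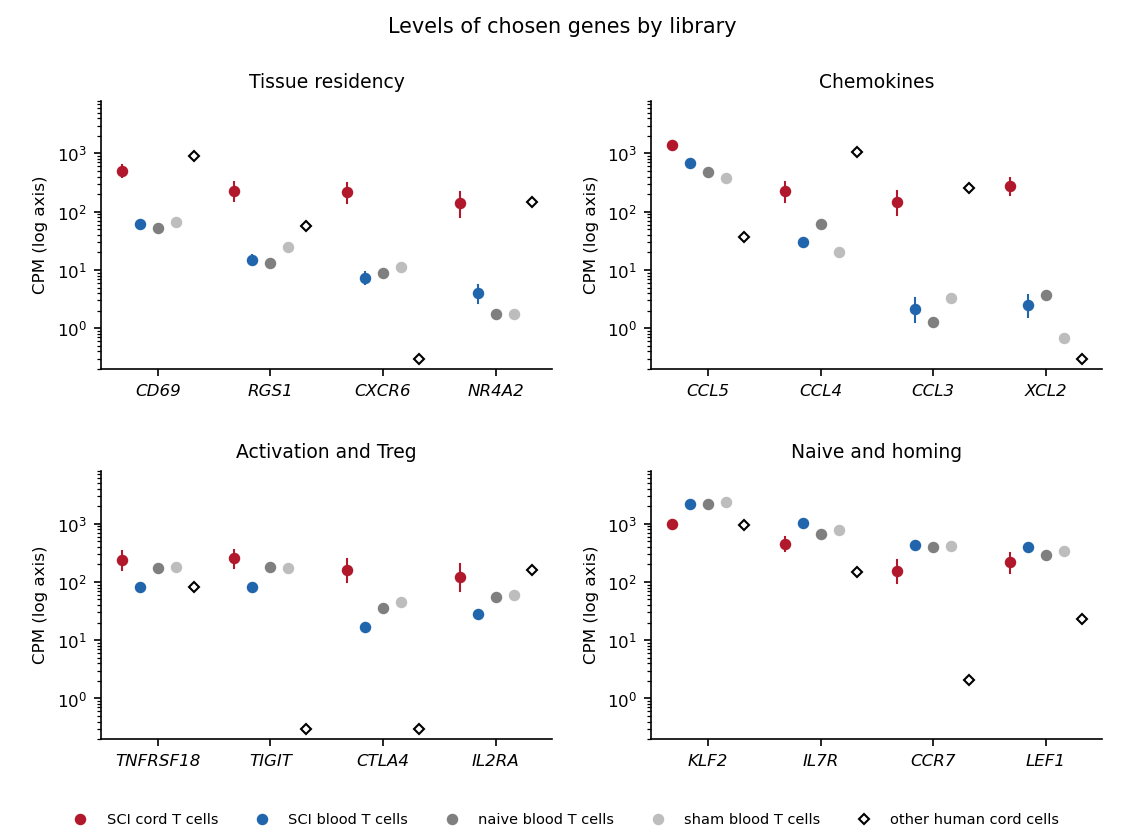
Levels in CPM, on a log axis, of 16 genes in T cells of the 4 libraries and in the other human cord cells (open diamonds, not thinned, with genes at 0 drawn at the foot of the panel). Bars are exact 95% Poisson intervals, drawn for SCI cord and SCI blood. The residency genes and CCL3, CCL4 and XCL2 stand above all bloods in cord T cells, KLF2, IL7R, CCR7 and LEF1 stand below them, and CXCR6, XCL2, TIGIT and CTLA4 are at 0 in the other cord cells.

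Immediate early genes, the first transcribed after a stimulus, were higher in part. Of 28 listed, 18 passed the filter, 10 were 2-fold higher and 1 (MYADM) was 2-fold lower. Over all tested genes 5.53% were higher and 2.43% lower. The median log2 ratio of the list was 1.11. NR4A2, DUSP2, FOSB and GADD45B lay under 50 CPM in SCI blood and passed only through the cord. Without the 3 barcodes 8 of 18 were higher, 1 was lower and the median was 0.88. FOS, a subunit of the AP-1 factor, stood at 938 CPM in the cord and at 127, 33.2 and 62.9 in SCI, naive and sham blood, 7.44-fold above SCI blood. JUNB, another subunit, stood at 769 against 230, 181 and 238, and DUSP1, a phosphatase that switches off MAP kinases, at 423 against 84.0, 50.2 and 74.7. For FOS the bloods themselves differed, with SCI blood above naive and sham blood and all of them below the cord.

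Not every immediate early gene followed. IER2 stood at 392 CPM in the cord and 378 in SCI blood, PPP1R15A at 231 and 198, and KLF6 at 808 and 1266. EGR1 (38.5 and 0.791 CPM), NR4A1 (30.8 and 1.24) and EGR3 (7.69 and 0.452) did not pass the filter, and ATF3, EGR2, KLF4 and NR4A3 had no UMI in the thinned cord cells. DUSP2, a phosphatase induced in stimulated T cells, was at 392 CPM in the cord against 33.8, 34.8 and 26.6 in the bloods, and at 29.1 in the other human cord cells. FOS, JUNB and DUSP1 were by contrast as high in those other cells, at 1665, 921 and 717 CPM. Whether the digestion moved these genes was not tested.

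Heat shock genes were close to blood. Of 15 genes of heat shock and chaperones, 12 passed, 0 were 2-fold apart and the median was 0.01. A list of NF-kB feedback genes had a median of 0.40, with 1 of 10 tested genes (NFKBID) 2-fold higher of 17 listed. Of 13 genes that respond to glucocorticoids, 10 were tested, and 4 were higher (DDIT4, DUSP1, SOCS1 and CXCR4) and 2 lower (TXNIP and IL7R). TSC22D3 and FKBP5, the best known of them, stood at 500.0 and 115 CPM in the cord and 674 and 85.4 in SCI blood.

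Chemokine ligands reached the widest ratios, but on few cells. Of 13 listed, 6 passed and all 6 were 2-fold higher, with a median of 5.79, where 5.53% of all tested genes were higher. XCL1, CCL3, XCL2, CCL4L2 and CCL4 lay under 50 CPM in SCI blood and passed the filter only through the cord. The count and median thus describe the genes that passed and not the list. CCL4, an inflammatory chemokine, stood at 223 CPM in the cord and 30.1, 61.7 and 20.6 in SCI, naive and sham blood, and CCL3, its close relative, at 146 against 2.15, 1.30 and 3.36. A UMI of either was found in 18.5% of thinned cord T cells (9.92 to 30.03) and 2.31% of SCI blood T cells, or in 24.2% and 3.12% without thinning. CCL5 was at 1408 CPM against 688, 489 and 377, and its log2 ratio of 1.04 (0.81 to 1.24) was 0.59 with all UMIs. The other human cord cells held CCL4 at 1039 CPM and CCL5 at 37.4.

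XCL1 and XCL2 show how thin some of these sums are. XCL2, a ligand for cross-presenting dendritic cells, stood at 277 CPM in the cord and 2.49 in SCI blood, and 34 of its 36 cord UMIs (94.4%) lay in 1 cell. XCL1 and XCL2 were seen in 3 of 65 thinned cord cells (4.62%, 0.962 to 12.9) and 0.429% of SCI blood T cells. GNLY, a lytic granule protein, stood at 1031 CPM in the cord and 552 in SCI blood with 61.2% of the cord UMIs in 3 cells. CCL3 and CCL4L2 each rested on 19 UMIs in 6 cells. XCL1 and XCL2, and CCL4 and CCL4L2, are near-identical copies, so how their reads were divided is uncertain.

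A minority of the cytotoxic granule genes were higher. Of 18 listed, 15 passed, 4 were 2-fold higher (SRGN, CST7, PRF1 and GZMH) and 0 were lower. Over all tested genes 5.53% were higher. The median log2 ratio of the 15 was 0.85. The medians of the lower and upper counting bounds of these genes were -0.13 and 1.15, on both sides of equality. PRF1, the pore-forming protein, was at 154 CPM in the cord and 65.1, 89.2 and 55.2 in the bloods. Granzymes did not move together, with GZMB at 69.2 and 37.9 CPM in cord and SCI blood, GZMA at 969 and 881, GZMK at 785 and 988, and GZMM at 123 and 222. SRGN, the granule proteoglycan, was at 1369 and 409 CPM and at 3620 in the other cord cells, and its cord level was 1089 without the 3 barcodes.

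Chemokine receptors had no common direction, with 2 higher (CXCR6 and CXCR4), 1 lower (CCR7) and a median of 0.38 over 6 tested of 19 listed. CXCR4 stood at 462 CPM in the cord and 179, 84.8 and 99.8 in the bloods. CXCR3, a receptor of effector T cells, stood at 208 against 108, 94.6 and 74.8, just short of 2-fold over SCI blood. Adhesion genes were close to blood, with a median of 0.02 and 1 lower gene (ITGA6, from 4 cord UMIs) among 14 tested of 18 listed. ITGA4, an integrin of T cell entry into the nervous system, was at 262 CPM in the cord and 396 in SCI blood, and ITGAL at 200 and 127.

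Few cytokine genes could be compared. Of 25 listed, 8 passed, 2 were higher (TNF and CD40LG) and the median was 0.46, while 12 had no UMI in the thinned cord cells, among them IL2, IL4, IL10, IL17A, IL21, IL22 and CSF2. A count of 0 allows up to 3 UMIs, so these were not detectable at this depth. IFNG had 6 cord UMIs (46.2 CPM) against 7.46 CPM in SCI blood. TNF stood at 84.6 CPM against 27.2, 32.5 and 29.4 in the bloods, from 11 UMIs, and passed the filter only through the cord.

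Some activation genes and most tested genes of regulatory T cells were higher than in SCI blood. Of 20 activation genes, 14 passed, 6 were higher (IL2RA, ICOS, TNFRSF18, CD40LG, NAMPT and TNFRSF4), 1 was lower (MYC) and the median was 0.86. Without the 3 barcodes the median was 0.68, with 6 higher and 1 lower of 15. NME1 and CD82, 2 further members, had log2 ratios of -0.84 and -0.38. Of 13 genes of regulatory T cells, 8 passed, 6 were higher, 0 were lower and the median was 1.60. Of 15 checkpoint genes, 6 passed, 4 were higher (CTLA4, ENTPD1, TIGIT and TOX), and the median was 1.63. Over all tested genes 5.53% were higher and 2.43% lower. CTLA4, ENTPD1, TOX, IL2RA and NAMPT lay under 50 CPM in SCI blood and passed the filter only through the cord. The counts and medians of these lists thus describe the genes that passed and not the lists. The lists share CTLA4, ENTPD1, TIGIT, IL2RA, TNFRSF18 and TNFRSF4 among them and are not separate counts. PDCD1, LAG3 and HAVCR2, further checkpoint receptors, did not pass, at 69.2, 46.2 and 46.2 CPM in the cord and 23.3, 22.8 and 4.18 in SCI blood.

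CTLA4, the inhibitory receptor for CD80 and CD86, stood at 162 CPM in the cord and at 16.5, 36.1 and 45.1 in SCI, naive and sham blood. The log2 ratio was 3.32 (2.56 to 3.96) over SCI blood, 2.19 over naive and 1.87 over sham blood. TIGIT stood at 254 CPM against 82.3, 182 and 174, and TNFRSF18 (GITR) at 238 against 82.8, 172 and 178. For these genes SCI blood was the lowest of the bloods, so the ratios over naive and sham blood were smaller. TNFRSF4 (OX40), at 208 CPM against 104, 190 and 233, was 2-fold above SCI blood but below sham blood. The regulatory list had a median of 1.60 over SCI blood, but 0.50 over naive blood and 0.44 over sham blood, and SCI blood itself had -0.87 and -1.08 over naive and sham blood. ICOS and CD40LG differed less by blood, at 177 against 61.6, 65.1 and 92.2 CPM and at 177 against 68.0, 84.8 and 80.2 CPM.

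FOXP3, the lineage factor of regulatory T cells, was detected in 13 of 66 cord T cells (19.7%, 10.9 to 31.3) and in 5.49% of SCI blood T cells without thinning. After thinning the shares were 4 of 65 (6.15%, 1.70 to 15.0) and 3.25% (2.75 to 3.82), with 7.54% in naive and 8.92% in sham blood. The thinned intervals of cord and SCI blood overlapped, and no difference was detectable at this depth. The 13 FOXP3 cells held 15 of the 21 thinned CTLA4 UMIs of the cord, 21 of the 31 TNFRSF18 UMIs and 13 of the 16 IL2RA UMIs. CTLA4 in FOXP3 cells stood at 577 CPM in the cord and 105 in SCI blood, with a log2 ratio of 2.49 (1.52 to 3.31). In cells without FOXP3 it stood at 57.7 and 11.4, with a log2 ratio of 2.45 (0.86 to 3.52) from 6 cord UMIs. FOXP3 was read here before thinning, where cord cells were deeper, so the classes of cord and blood are not matched.

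CD8 T cells, here those with at least 2 UMIs of CD8A and CD8B, were 16 of 66 in the cord (24.2%, 14.5 to 36.4) and 28.6% in SCI blood, and 16.9% (8.76 to 28.3) and 22.3% after thinning. CD8 shares were 12.5% and 13.03% in thinned naive and sham blood, so the cord lay between the bloods and its interval reached all of them. 47 cord T cells had no CD8 UMI, the 3 barcodes with basophil RNA among them, and CD4 was found in 33 of the 47. The 16 CD8 cells were compared with 1350 of SCI blood, of which 1278 could be thinned, and the 47 with 3025, of which 46 and 2838 could be thinned. CD69 stood at 812 and 75.1 CPM in CD8 cells of cord and SCI blood and at 391 and 53.4 in cells without CD8. CXCR6 was higher in both classes too, at 375 and 9.78 CPM in the first and 174 and 5.81 in the second.

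Effector genes were divided between the classes. Of the 15 cytotoxic granule genes tested, 8 were 2-fold higher and 0 lower in CD8 cells (median 1.05), and 3 were higher and 5 lower in cells without CD8 (median -0.03). Over all genes, 784 of 3836 were higher and 219 lower in CD8 cells (median 0.34). Without CD8, 305 of 3684 were higher and 125 lower (median 0.12), and 305 and 120 of 3682 without barcodes of 10 or more basophil UMIs. Among the lower genes, GZMB and GZMH had 0 cord UMIs without CD8, with upper bounds of 1.78 and 1.37 that include equality, and GZMM had 2. GZMA had 53 cord UMIs in CD8 cells and 66 in cells without CD8, and KLRB1, a receptor of innate-like T cells, had 9 and 78. CCL5 reached 4750 CPM in cord CD8 cells and 1591 in those of SCI blood, and 239 and 158 CPM in cells without CD8. CCL3 was at 500.0 and 5.09 CPM in CD8 cells, where 16 of its 19 UMIs lay. DUSP2 was at 1000 and 50.1 CPM in CD8 cells and 174 and 22.7 in the others. MHC class II genes, which human T cells express on activation, had a median of 2.15 in CD8 cells and 0.55 in the others over the same 7 genes, with HLA-DRA at 438 and 84.1 CPM in CD8 cells and 152 and 107 in the rest.

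The cells without CD8 were 46 of the 65 thinned cord T cells. CD40LG, the ligand by which helper T cells activate B cells, had all 23 cord UMIs there, and ENTPD1 all 17. SLC2A3, a glucose transporter, had 30 of 31 UMIs there, RGS1 25 of 30 and DDIT4 23 of 26. The list of regulatory T cell genes had 6 of 8 genes 2-fold higher and a median of 1.42 in CD8 cells, and 5 of 8 and 1.49 in cells without CD8. The CD8 value rests on few UMIs, with CTLA4 at 2 and ENTPD1 at 0 in the cord. Over all genes, 784 of 3836 were higher in that class. Whether the list follows the split cannot be told from these counts. IKZF2, a transcription factor on that list, stood at 312 CPM in cord CD8 cells and 207 in the others. SRGN was 1685 and 482 CPM in cells without CD8 and 469 and 272 in CD8 cells. The 3 barcodes with basophil RNA lie in the class without CD8, and over all cord T cells SRGN was lower without them. The difference between the classes was not tested. KLF2 was lower than in blood in both, with log2 ratios of -1.07 in CD8 cells and -1.24 in the others, and so was CCR7, at -0.93 and -1.75.

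Lists of metabolism and interferon stayed near SCI blood. Nuclear genes of oxidative phosphorylation, all 57 of which passed, had a median of 0.15 with 1 gene higher and 1 lower. The 13 mitochondrial genes, measured on a scale of all human genes, had a median of -0.04, and 1, MT-ATP8, which overlaps MT-ATP6, passed 2-fold. Glycolysis and hypoxia genes had a median of 0.18 over 15 tested of 24 listed, with DDIT4 (200 and 24.3 CPM) and SLC2A3 (238 and 71.4 CPM) higher and GAPDH (2377 and 2107 CPM) close to equal.

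Type I interferon response genes had a median of -0.17 over SCI blood, with 0 higher and 1 (OAS1) lower among 25 tested of 32 listed. Against naive and sham blood the median was -0.66 and -0.93, and SCI blood itself stood at -0.50 and -0.65. ISG15, a ubiquitin-like effector of this response, showed the same order, at 585 CPM in the cord, 855 in SCI blood, 1553 in naive blood and 1705 in sham blood. Genes of MHC class II had a median of 0.73 over SCI blood and of 0.12 and 0.14 over naive and sham blood. HLA-DRA stood at 215 CPM in the cord against 98.3, 152 and 128, and at 6501 CPM in the other human cord cells.

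**Figure D5:**
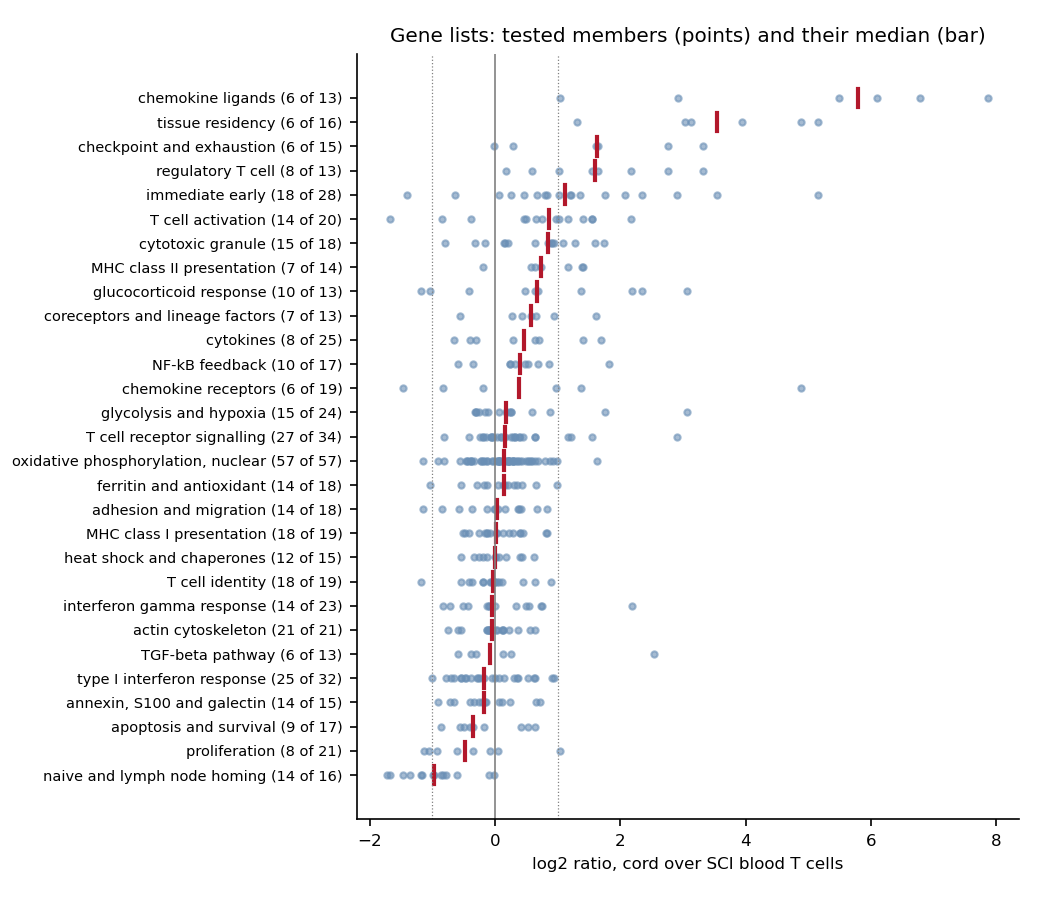
Log2 ratios of cord over SCI blood T cells for the tested members of 29 gene lists (points), with the median of each list (red bar) and the number tested of those listed in brackets. Dotted lines mark 2-fold. Chemokine ligands, at 5.79, and tissue residency, at 3.54, have the highest medians and naive and lymph node homing, at -0.98, the lowest. A list may share members with another, and genes rare in blood enter only where they are high in the cord.

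Other lists were close to the median of 0.08 of all tested genes. They were actin cytoskeleton (median -0.05, 0 of 21 tested 2-fold apart), MHC class I presentation (0.02, 0 of 18) and annexins, S100 proteins and galectins (-0.18, 0 of 14). T cell receptor signalling had a median of 0.15, and its 4 higher genes of 27 tested were FOS, JUN, ICOS and the adaptor LCP2 (254 and 115 CPM). In the TGF-beta pathway the median was -0.09, and SKIL, a repressor of SMAD signalling, was the exception at 123 CPM against 21.9, 28.0 and 25.1 in the bloods.

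Genes of proliferation had a median of -0.48 over 8 tested of 21 listed, with 2 lower (STMN1 and HMGB2) and 1 higher (RRM1, from 9 UMIs). A UMI of MKI67 or TOP2A, made in dividing cells, was found in 0 of 65 thinned cord T cells (0 to 5.52%) and in 5.88% of SCI blood T cells (5.202 to 6.61), and without thinning in 6.06% and 8.12%. The thinned interval of the cord overlapped that of SCI blood but did not reach its 5.88%. Unthinned, the cord interval held the SCI blood share (1.68 to 14.8 against 7.36 to 8.94). MKI67 and TOP2A had 0 thinned cord UMIs against 44.0 and 32.4 CPM in SCI blood, and neither passed the filter. The thinned and unthinned readings differed, so these shares do not settle whether fewer cord T cells were dividing.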

How the data were processed

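Human CD45+ cells sorted from huNSG-SGM3 mice were measured by droplet single-cell RNA-seq in 4 libraries, 1 from the cord and 1 from the blood of SCI mice and 1 each from the blood of naive and sham mice. The authors aligned reads with Cell Ranger to a combined human and mouse reference (hg38 and mm10) and deposited filtered UMI counts for 33538 human and 31053 mouse genes, with no normalisation. From these counts, T cells were selected, thinned and summed in Python 3.11.15 (NumPy 2.4.6, SciPy 1.17.1), and log2 ratios were taken with 0.5 counts added. The study tested cells with Seurat, which was not repeated since cells of 1 library are not replicates. No doublet caller was run. Levels carry exact Poisson intervals, shares Clopper-Pearson intervals and ratios conditional binomial intervals. TMM factors came from edgeR 4.0.16 in R 4.3.3. The steps were checked on simulated cells. Members, lists and the rule for named genes were chosen with earlier results of these data known. Named genes are list members, by level or ratio, and the 12 highest and 12 lowest ratios. Receptor and immunoglobulin variable segments, sex-linked genes used for typing and variably present genes were left out. Human UMIs of the cord T cells summed to 622327.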

Additional observations from a re-analysis of the deposited data

Results flagged for a closer look

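Mouse RNA lay outside every comparison of the report. On the barcodes of human T cells, UMIs of 15 genes of mouse microglia or macrophages stood at 499.5 per 1000000 in the cord, against 123 in SCI blood, 20.4 in naive blood and 150.3 in sham blood. The level was flagged because it lay above that of all blood libraries. All mouse genes together ran the other way, at 6861 UMIs per 1000000 in the cord and 9946 in SCI blood. Mouse neutrophil genes stood at 0 in the cord and at 844 per 1000000 in SCI blood. Mouse neural genes stood at 3.19 and 1.52 per 1000000, from 2 UMIs in the cord.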

How the results depend on the processing

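Counts of 2-fold genes (207 higher and 91 lower) depended on depth, filter and fold. Thinning to 1000 UMIs gave 391 and 147, all UMIs summed 126 and 46, a mean of per-cell CPM 117 and 52, ribosomal and mitochondrial genes kept 131 and 49, and TMM scaling 139 lower. With only the 16 CD8 cells of the cord the counts were 784 and 219. A filter at 20 CPM gave 674 and 274, at 100 CPM 58 and 30, and no filter 7913 and 1000. At 1.5-fold they were 632 and 349, and at 3-fold 57 and 16.

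In 670 of 696 cases a list median stayed within the median bounds of its members' counting intervals. Tissue residency moved to 2.73 in CD8 cells, 1.81 at 20 CPM and 2.10 with no filter. Chemokine ligands moved to 4.58 without cells holding other cells' markers, 1.57 in cells without CD8, 2.91 at 100 CPM and 4.52 with equal CPM added on both sides, an alternative chosen after seeing the data, as was leaving out the 3 barcodes. Chemokine receptors moved to -0.30 in cells without CD8 and 0.97 at 100 CPM and with no filter. Cytokines moved to 0.77 with ribosomal and mitochondrial genes kept and in cells without CD8, -0.12 in CD8 cells and 1.70 with no filter. Checkpoint genes moved to 0.80 with ribosomal and mitochondrial genes kept, 0.81 over naive blood and 0.29 at 100 CPM. Over naive and sham blood, regulatory genes moved to 0.50 and 0.44 and MHC class II genes to 0.12 and 0.14, while MHC class II reached 1.91 in CD8 cells. Over sham blood, cytotoxic genes moved to 1.44 and type I interferon genes to -0.93. Annexins moved to -0.026 in CD8 cells and proliferation to -1.34 with all UMIs. The filter and the class set which genes enter each median, and the other causes were not tested. Medians with no filter hold genes of few or 0 cord UMIs, whose ratios the 0.5 counts added raise.

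Among named genes, PTGER2 turned to 0.082 over naive blood, TNFRSF4 to -0.14 over sham blood, HMGB2 to 0.021 in CD8 cells, GZMH to -1.55 in cells without CD8 and CLC to -1.55 without barcodes of over 3000 genes. The number of cord T cells stayed within 1.5-fold under the 8 alternatives run, and their CD8 share stayed within its interval under 10. With 65 thinned cord cells, 1 UMI is 7.69 CPM, so a gene under 100 CPM rests on few molecules.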

Other observations

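Lineage factors and a few further groups add to the picture. TOX, a factor of long-stimulated T cells, stood at 108 CPM in cord T cells and 36.3, 56.6 and 52.7 in SCI, naive and sham blood, from 14 cord UMIs in 12 cells. It was the 1 gene of 7 tested, of 13 listed, that was 2-fold apart among coreceptors and lineage factors (median log2 ratio 0.57). MAF stood at 138 CPM against 73.9, 110 and 127, and GATA3, the factor of type 2 helper cells, at 231 against 175, 202 and 207. TBX21, EOMES and BCL6 were too low to test.

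Among 14 tested genes of the interferon gamma response, of 23 listed, SOCS1, an inhibitor of cytokine signalling, was 2-fold higher at 162 CPM against 36.5, 43.9 and 36.4. The median was -0.05, and SOCS1 was also high in the other human cord cells, at 395 CPM. Genes of apoptosis and survival had a median of -0.35 with 0 of 9 tested genes 2-fold apart, and BCL2 stood at 53.8 CPM in the cord and 105 in SCI blood. Among 14 tested genes of ferritin and antioxidant defence the median was 0.15, and TXNIP, which binds thioredoxin, was 2-fold lower than SCI blood at 646 CPM against 1329, 759 and 1000. Its ratio over naive blood was -0.22.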
